A study of Mus musculus with 20 samples.

Results

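Translation initiation factor genes were described in the soleus, a slow and oxidative hind-limb muscle, of C57BL/6J mice. Members were the rows of the count table whose Ensembl identifier belongs to a protein-coding gene with a symbol starting Eif1 to Eif6, which takes in the eIF4E-binding proteins and the eIF2 kinases. This gave 55 of 56941 rows, with 5 named for eIF1, 15 for eIF2, 14 for eIF3, 16 for eIF4, 4 for eIF5 and 1 for eIF6. The control group held 10 libraries from mice that were sham-irradiated. The exposed group, labelled space, held 10 libraries from mice that underwent 14 days of hind-limb unloading combined with ionizing radiation and a stress treatment. The sample labels call that treatment a stress hormone, and the series text says that the stress was given through diet. The 3 exposures were applied together, so their parts cannot be told apart, and the labels used here state no age. The series text gives 10 mice a group, with the whole soleus of one limb taken, and no label ties a library to a mouse by name. The p-values rest on how these samples varied.

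Initiation brings the ribosome to the start codon of an mRNA. The cap-binding complex eIF4F joins the cap-binding protein eIF4E, the scaffold eIF4G and the RNA helicase eIF4A, and the 4E-BP proteins block it by holding eIF4E when mTORC1 is inactive. eIF2 delivers the initiator tRNA, eIF2B recharges it with GTP, and kinases that sense different stresses phosphorylate eIF2 and thereby slow most initiation. eIF3 is a large complex that links the small ribosomal subunit to eIF4F. In muscle this step is known as a main point at which load, feeding and hormones set protein synthesis.

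RNA was sequenced after removal of ribosomal RNA, from 90 ng of total RNA a library, and counts summed to between 17336017 and 43424464 per library. Values are given as CPM, each gene's share of the library's counts, scaled up to the usual common total and by TMM (a factor per library that balances the bulk of genes). The 8 markers of skeletal muscle fibres were all detected, at a summed 222158 to 276407 CPM among controls and 198267 to 281008 CPM in exposed libraries, so the defining markers of the labelled tissue were present. Most of that sum was Ttn (control mean 191420 CPM), so the sum says little of the other markers. Of these 8, 1 rose and 4 fell by the edgeR test given below, where 57.6% of all tested genes were called. Ckm rose 2.21-fold, while Myh7 fell 2.19-fold, Acta1 2.14-fold, Mb 1.53-fold and Tnnt1 1.46-fold. Des, Neb and Ttn did not pass. Exposed replicates 1 to 4 stood apart. Their summed level of 8 Schwann cell and nerve markers was 508.1 to 1485 CPM, against 94.3 to 190.5 in controls and 93.4 to 180.8 in exposed replicates 5 to 10, and their 4 adipocyte markers summed to 133.2 to 325.8 CPM against 22.4 to 157.4 and 23.3 to 139.6. Values without these 4 libraries are given for some of the results that they move. In whole muscle, fewer cells of a type and less RNA per cell cannot be told apart.

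Of the 55 members, 53 passed the filter on low counts and were tested, and most of those that changed did so by a small amount. In the edgeR quasi-likelihood test 19 members were higher and 15 lower in exposed muscle at a Benjamini-Hochberg adjusted p under 0.05, which is 64.2% of those tested. Over all 16778 tested genes 57.6% were called, with 28.7% raised and 28.9% lowered. The median log2 fold change of the members was 0.002, beside 0.023 over all genes, and their median absolute change was 0.157 beside 0.274. The 2 groups of libraries did not overlap for 10 of the 53 members, 7 higher and 3 lower, against 17.4% of all tested genes. Tested against a fold of 1.2, 7 members passed (edgeR glmTreat), beside 29.0% of all genes: Eif4g3, Eif4ebp1, Eif4ebp2, Eif3b, Eif3j1, Eif5a2 and Eif2ak2. Scaling by library size alone gave 24 members higher and 10 lower, a setting in which the share of raised genes among all called genes went from 49.8% to 61.3%. That scaling moved the median of all genes from 0.023 to 0.104 log2 units and that of the members from 0.002 to 0.082. Without exposed replicates 1 to 4, 20 members were higher and 12 lower, where 51.3% of all genes were called.

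**Figure D1:**
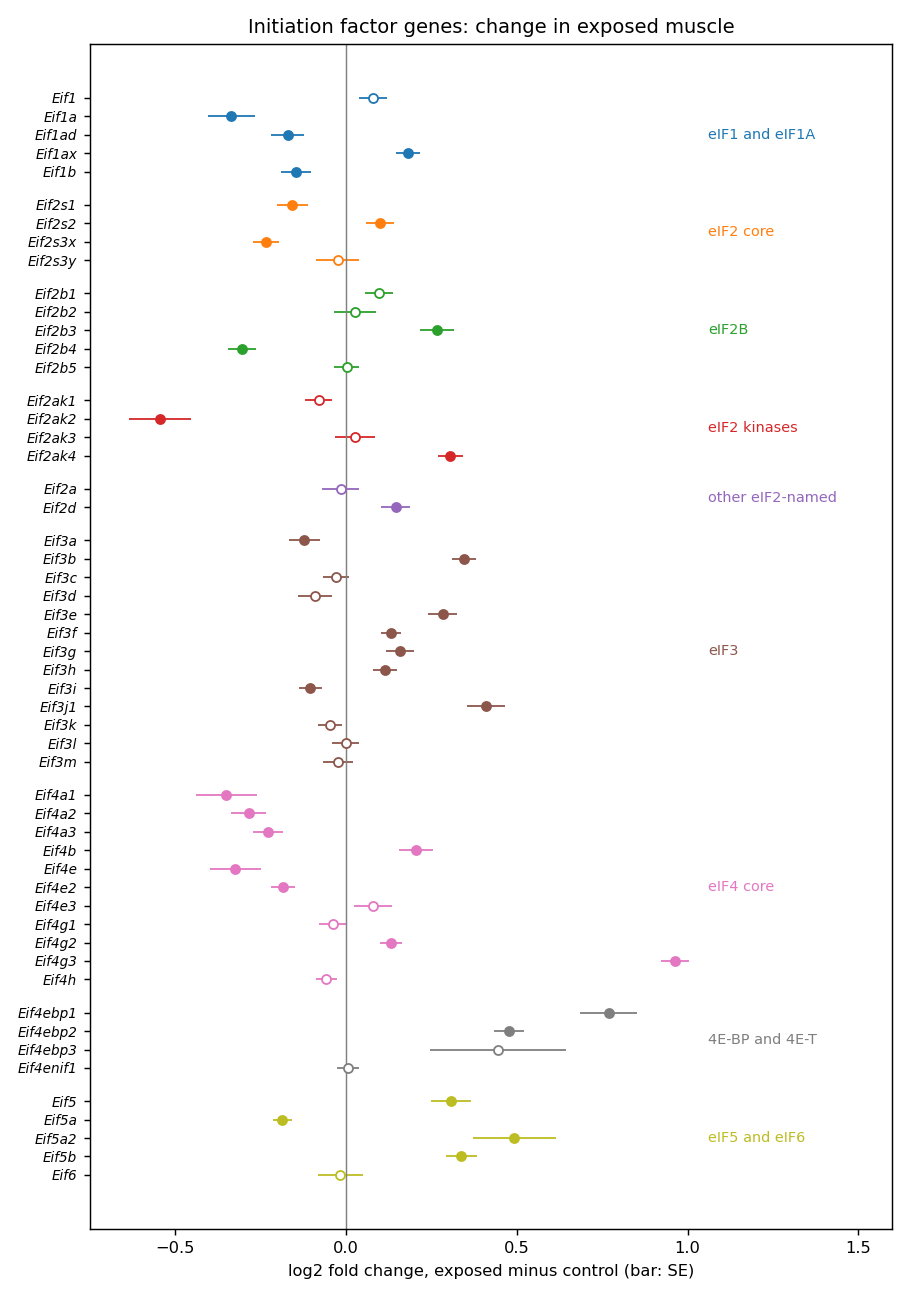
Log2 fold change, exposed minus control, of the 53 tested members with its SE (horizontal bars), grouped and coloured by factor; filled points passed the edgeR test at an adjusted p under 0.05. Eif4g3 (0.96) and Eif4ebp1 (0.77) lie furthest right and Eif2ak2 (-0.54) furthest left, while most points lie near 0.

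Of 15 tested members named for eIF4, 5 rose and 5 fell, so 66.7% were called, near the 57.6% of all genes. The scaffold gene Eif4g3 rose, as did the repressor genes Eif4ebp1 and Eif4ebp2, while the cap-binding gene Eif4e and the helicase genes Eif4a1 and Eif4a2 fell. Eif4b, which encodes a cofactor of the helicase, and Eif4g2 rose slightly.

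Eif4g3, which encodes the eIF4G paralogue also called eIF4GII, showed the largest change of the 53 tested members. Controls held 119.6 to 136.9 CPM with a median of 129.0, and exposed libraries held 230.1 to 294.1 CPM with a median of 248.9. All 10 exposed libraries lay far above the highest control. Exposed replicates 1 to 4 (232.7 to 243.0 CPM) lay low in the exposed range, above replicate 10 (230.1 CPM) and below the others. The rise was 1.95-fold (0.96 ± 0.041 SE on the log2 scale; edgeR adjusted p = 1.40e-14), and 2.04-fold without exposed replicates 1 to 4. Its better known paralogue Eif4g1 spanned 483.1 to 568.5 CPM among controls and, in exposed muscle, 461.8 to 581.4 CPM (medians 536.1 and 527.9). Exposed replicates 1 to 4 were the lowest exposed libraries, at 461.8 to 506.9 CPM. The ranges of the groups overlapped widely and the difference did not pass the test (-0.04 ± 0.040 SE on the log2 scale; edgeR adjusted p = 0.461). Eif4g2, which encodes a relative without the eIF4E-binding site that serves cap-independent initiation, was the most counted member. It rose 1.10-fold, from 756.2 to 860.5 CPM (median 791.5) in controls to 832.8 to 968.0 CPM (median 861.1) in exposed libraries (edgeR adjusted p = 0.00809). Its groups overlapped, with 5 of 10 exposed libraries above the highest control.

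Per kilobase of exon, Eif4g3 made up 13.7% ± 0.286 (SD, n = 10) of the summed Eif4g1 and Eif4g3 level in controls and 24.2% ± 0.908 (SD, n = 10) in exposed libraries. The share ran from 13.2% to 14.1% in controls and from 22.3% to 25.5% in exposed libraries, so the groups were far apart. In exposed replicates 1 to 4 it was 23.4% to 25.5%, as high as in the other exposed libraries.

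Both main 4E-BP genes were higher in every exposed library than in any control. Eif4ebp1, the 4E-BP best known as an mTORC1 substrate, held 18.7 to 30.8 CPM (median 24.7) in controls and 36.1 to 55.4 CPM (median 42.8) in exposed libraries. That was a 1.70-fold rise (0.77 ± 0.084 SE on the log2 scale; edgeR adjusted p = 1.82e-08). Eif4ebp2, the more abundant of the pair, went from 221.2 to 253.4 CPM (median 236.3) to 274.4 to 368.9 CPM (median 326.9), a 1.39-fold rise (0.48 ± 0.044 SE on the log2 scale; edgeR adjusted p = 3.56e-09). Eif4ebp3 was scarce, with a control mean of 0.483 ± 0.144 CPM and an exposed mean of 0.668 ± 0.215 CPM (SD, n = 10 each), and did not pass (edgeR adjusted p = 0.0690). It overlaps another protein-coding model on the same strand, so its value is uncertain. Eif4enif1, which encodes the eIF4E transporter 4E-T, differed by a log2 fold change of 0.01 ± 0.032 SE and did not pass either.

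Eif4e itself fell. Controls held 65.5 to 90.3 CPM (median 75.3) and exposed libraries 47.1 to 70.2 CPM (median 62.9), a 1.25-fold decrease (-0.33 ± 0.075 SE on the log2 scale; edgeR adjusted p = 0.000314). All 10 exposed libraries lay below the control mean, 6 of them below the lowest control. The 4 exposed libraries high in nerve markers held the least, 47.1 to 60.2 CPM against 61.9 to 70.2 CPM in replicates 5 to 10. Without them the decrease was 1.15-fold (log2 fold change -0.201, edgeR adjusted p = 0.00640), and the part of nerve or fat tissue in the result was not tested. The ratio of summed Eif4ebp1 and Eif4ebp2 to Eif4e, per kilobase, was 4.15 ± 0.530 (SD, n = 10) in controls and 7.60 ± 0.819 (SD, n = 10) in exposed libraries. It ran from 3.44 to 4.88 and from 6.41 to 8.77, with no overlap, and in exposed replicates 5 to 10 alone it was 6.41 to 7.97. The ratio sets genes that rose over a gene that fell, so it is no result apart from theirs. Of the other cap-binding relatives, Eif4e2, whose product competes for the cap and represses translation, fell 1.14-fold from a median of 40.8 CPM (38.6 to 46.6) to 36.4 CPM (33.6 to 40.9; edgeR adjusted p = 0.000249). Eif4e3 stood at 12.4 ± 0.899 and 13.1 ± 1.21 CPM (SD, n = 10 each) and did not pass, and it overlaps another protein-coding model on the same strand. Eif4e1b, an oocyte form, had no count in any library, which allows at most 0.0691 to 0.173 CPM (3 counts of the library total, counting error only).

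**Figure D2:**
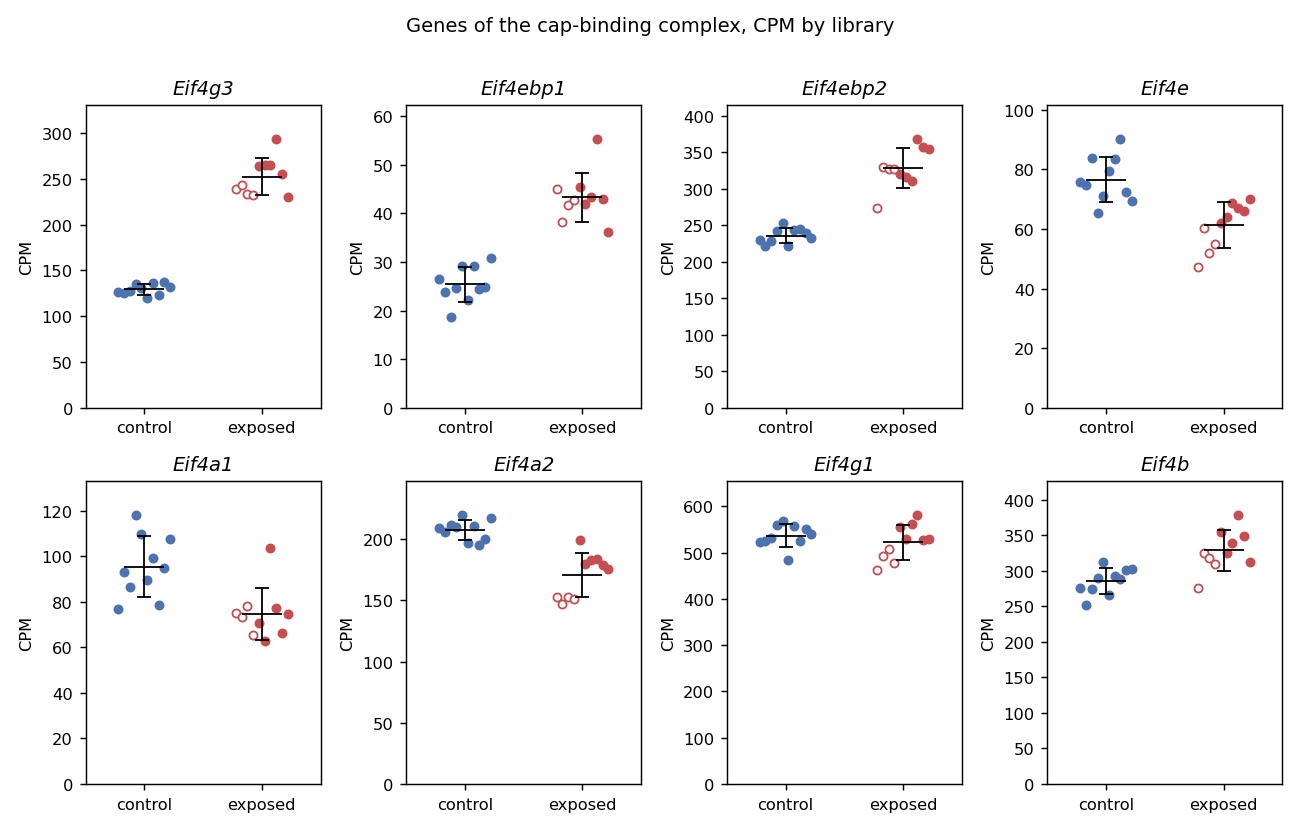
CPM of 8 genes named for eIF4 in each control (blue) and exposed (red) library, with the mean and SD as bars. They are genes of the cap-binding complex, its repressor genes Eif4ebp1 and Eif4ebp2, and the helicase cofactor gene Eif4b. Open red points are exposed replicates 1 to 4, which were high in nerve markers. Eif4g3, Eif4ebp1 and Eif4ebp2 show no overlap between groups, and the open points are the lowest exposed libraries for Eif4e (47.1 to 60.2 CPM) and Eif4a2 (147.4 to 153.1 CPM).

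The 3 helicase genes fell together. Eif4a1, the general eIF4A helicase, held 76.9 to 118.2 CPM (median 94.0) in controls and 63.0 to 103.6 CPM (median 74.1) in exposed libraries, a 1.28-fold decrease (-0.35 ± 0.090 SE on the log2 scale; edgeR adjusted p = 0.00139). The groups overlapped: 7 of 10 exposed libraries lay below the lowest control and 9 below the control mean, with exposed replicate 7 the exception at 103.6 CPM. Eif4a2, the form that is more abundant in muscle here, held 195.0 to 219.9 CPM (median 209.6) in controls and 147.4 to 199.6 CPM (median 177.3) in exposed libraries. Its 1.22-fold decrease (-0.29 ± 0.051 SE on the log2 scale; edgeR adjusted p = 3.95e-05) became 1.13-fold without exposed replicates 1 to 4, which held 147.4 to 153.1 CPM (log2 fold change -0.172, edgeR adjusted p = 0.000665). Eif4a3, an exon junction complex helicase rather than an initiation factor, fell 1.17-fold, from 18.9 to 25.4 CPM (median 22.1) to 17.7 to 20.2 CPM (median 18.4; edgeR adjusted p = 0.000213). Reads of Eif4a1 and Eif4a2 could be shared with each other and with small nucleolar RNA genes that overlap them, and Eif4a2 overlaps Rfc4 on the opposite strand at 3.02 CPM. The cofactor gene Eif4b rose 1.15-fold, from 251.1 to 311.8 CPM (median 288.6) to 275.4 to 378.5 CPM (median 324.8; edgeR adjusted p = 0.00128), with 8 of 10 exposed libraries above the highest control. The rise of Eif4b was 1.21-fold without exposed replicates 1 to 4. Eif4h, a related cofactor gene, stood at 83.1 ± 2.86 and 79.8 ± 4.80 CPM (SD, n = 10 each) and did not pass (edgeR adjusted p = 0.164).

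Promoter sequences of 3 eIF4 genes are shown because they belong to the member that rose most, a repressor that rose with it and a helicase that fell. They are the 250 bases before the first listed start of each gene in RefSeq (build GRCm38.p6), 5′ to 3′ on the gene's strand. Eif4g3 lies at chr4:137993205-137993454 on the plus strand, Eif4ebp2 at chr10:61452670-61452919 on the minus strand and Eif4a1 at chr11:69672424-69672673 on the minus strand. Capitals mark the letters CACGTG (the E-box, a binding sequence of MYC and its relatives) and GGGCGG (the GC box) on either strand.
Eif4g3: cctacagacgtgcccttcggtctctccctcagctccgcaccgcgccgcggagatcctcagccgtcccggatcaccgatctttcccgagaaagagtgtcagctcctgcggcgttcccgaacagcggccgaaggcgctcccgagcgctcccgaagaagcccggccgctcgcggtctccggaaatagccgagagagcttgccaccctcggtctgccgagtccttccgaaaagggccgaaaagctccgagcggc
Eif4ebp2: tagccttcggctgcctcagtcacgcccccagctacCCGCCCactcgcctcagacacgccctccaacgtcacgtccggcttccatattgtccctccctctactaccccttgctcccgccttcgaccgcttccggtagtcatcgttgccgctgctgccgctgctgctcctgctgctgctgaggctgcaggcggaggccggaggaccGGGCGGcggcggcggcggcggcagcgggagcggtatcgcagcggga
Eif4a1: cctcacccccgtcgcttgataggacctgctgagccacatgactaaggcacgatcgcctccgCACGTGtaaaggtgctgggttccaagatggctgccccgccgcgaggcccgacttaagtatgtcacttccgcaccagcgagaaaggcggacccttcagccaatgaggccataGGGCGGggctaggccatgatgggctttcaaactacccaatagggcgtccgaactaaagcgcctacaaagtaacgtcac
Eif4a1 held 1 E-box, beginning 189 bases before the start, and 1 GC box, Eif4ebp2 held 2 GC boxes, and Eif4g3 held neither. Of 43 members with an entry in that table, 7 (16.3%) held CACGTG in this window, beside 6.05% of 27025 promoters of all genes, and 31 (72.1%) held GGGCGG, beside 32.9%. The 7 were Eif1b and Eif4a1, which fell, Eif3f and Eif5a2, which rose, and Eif3k, Eif4g1 and Eif4h, which did not pass the test. None held TGATGCAA, an amino acid response element bound by ATF4, which 0.818% of all promoters held, and Eif4ebp1 had no entry. The promoters of all genes were not matched to those of the members in expression, gene class or GC content. The higher shares can therefore not be called particular to initiation factor genes.

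Of 15 members named for eIF2, 4 rose and 4 fell, so 53.3% were called, near the 57.6% of all genes. The subunit genes of eIF2 itself changed little. Eif2s1, which encodes the alpha subunit that the kinases phosphorylate, held 26.2 to 32.0 CPM (median 29.9) in controls and 24.5 to 30.6 CPM (median 26.0) in exposed libraries. Its 1.12-fold decrease (edgeR adjusted p = 0.00646) did not pass with upper-quartile scaling, with library size alone or without exposed replicates 1 to 4. Eif2s2, the beta subunit gene, rose 1.07-fold, from 56.4 to 69.9 CPM (median 60.1) to 60.5 to 72.2 CPM (median 64.6). It passed narrowly (edgeR adjusted p = 0.0491), and the call was lost with the DESeq2 test, with no filter on low counts, and without any one of control replicates 1 to 8 or exposed replicates 6 to 10. Without exposed replicates 1 to 4 its log2 fold change was 0.158 against 0.099 over all (edgeR adjusted p = 0.00666). The gamma subunit has an X-linked and a Y-linked gene. Eif2s3x fell 1.18-fold, from 43.0 to 47.7 CPM (median 44.7) to 34.4 to 42.4 CPM (median 38.1), with no overlap between groups (edgeR adjusted p = 2.56e-05). Without exposed replicates 1 to 4 its decrease was 1.12-fold (edgeR adjusted p = 0.00163). Eif2s3y held 41.3 to 50.8 CPM (median 47.8) in controls and 36.2 to 55.6 CPM (median 46.2) in exposed libraries and did not pass (-0.02 ± 0.063 SE on the log2 scale; edgeR adjusted p = 0.737). The pair is similar in sequence, and how reads matching both were counted is not stated in the labels.

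Among the 5 subunit genes of eIF2B, the exchange factor of eIF2, Eif2b3 rose and Eif2b4 fell. Eif2b4 held 25.4 to 30.0 CPM (median 28.1) in controls and 19.6 to 25.2 CPM (median 22.5) in exposed libraries, a 1.23-fold decrease with no overlap (edgeR adjusted p = 1.99e-06). It overlaps Snx17 on the opposite strand, which stood at 25.2 and 24.3 CPM, and whether reads were counted by strand is not stated in those sources. Eif2b3 held 11.2 to 14.0 CPM (median 12.2) and 13.0 to 16.3 CPM (median 14.8), a rise of 0.27 ± 0.051 SE on the log2 scale with the control mean exceeded in all 10 exposed libraries (edgeR adjusted p = 0.000180). Eif2b5, the catalytic subunit gene, held 38.6 to 47.9 CPM (median 41.7) in controls and 37.8 to 44.4 CPM (median 42.1) in exposed libraries, a log2 fold change of 0.00 ± 0.037 SE (edgeR adjusted p = 0.965). Eif2b1 and Eif2b2 did not pass, at log2 fold changes of 0.10 ± 0.041 SE and 0.03 ± 0.062 SE. For Eif2b1 this depended on the setting, as it passed without exposed replicates 1 to 4 (edgeR adjusted p = 0.0417). It also passed with upper-quartile scaling, with library size alone and with a filter of 1 CPM. Leaving out control replicate 4 or exposed replicate 3, 9 or 10 gave the same.

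The 4 eIF2 kinase genes did not move as one. Eif2ak4, which encodes GCN2, the sensor of amino acid shortage, held 12.3 to 14.7 CPM (median 13.7) in controls and 15.2 to 17.7 CPM (median 16.9) in exposed libraries. Every exposed library lay above every control, and the rise was 1.24-fold (0.31 ± 0.036 SE on the log2 scale; edgeR adjusted p = 1.31e-06). Eif2ak2, which encodes PKR, the sensor of double-stranded RNA and an interferon-induced gene, went the other way, from 6.27 to 9.85 CPM (median 8.39) to 4.63 to 7.78 CPM (median 5.52). This 1.46-fold decrease was the largest fall of the 53 tested members (-0.54 ± 0.090 SE on the log2 scale; edgeR adjusted p = 1.28e-05), and 9 of 10 exposed libraries lay below the lowest control. The exception was exposed replicate 4 at 7.78 CPM, and the 4 libraries high in nerve markers held 5.72 to 7.78 CPM against 4.63 to 5.53 CPM in the other 6. The decrease of Eif2ak2 was 1.60-fold without those 4 (log2 fold change -0.680, edgeR adjusted p = 1.38e-06). Eif2ak3, which encodes PERK, the sensor of endoplasmic reticulum stress, held 8.25 to 10.7 CPM (median 9.12) and 7.94 to 10.7 CPM (median 9.69) and did not pass (edgeR adjusted p = 0.726). Eif2ak1, the gene of the heme-regulated kinase HRI, was the most counted of the 4, at 33.1 to 41.3 CPM (median 37.2) and 32.7 to 38.2 CPM (median 35.6), and did not pass either (edgeR adjusted p = 0.0999). Eif2ak1 overlaps Aimp2 on the opposite strand, at 17.0 and 16.5 CPM. Per kilobase, the ratio of Eif2ak4 to Eif2ak2 was 1.15 ± 0.147 (SD, n = 10) in controls and 2.08 ± 0.318 (SD, n = 10) in exposed libraries, with ranges of 0.957 to 1.40 and 1.45 to 2.52 that did not overlap. This ratio sets the kinase gene that rose over the kinase gene that fell, so it is no result apart from theirs. Of the 2 factors that share only the name, Eif2d, which delivers tRNA without GTP, rose 1.11-fold (edgeR adjusted p = 0.00844) and Eif2a did not pass (edgeR adjusted p = 0.814).

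**Figure D3:**
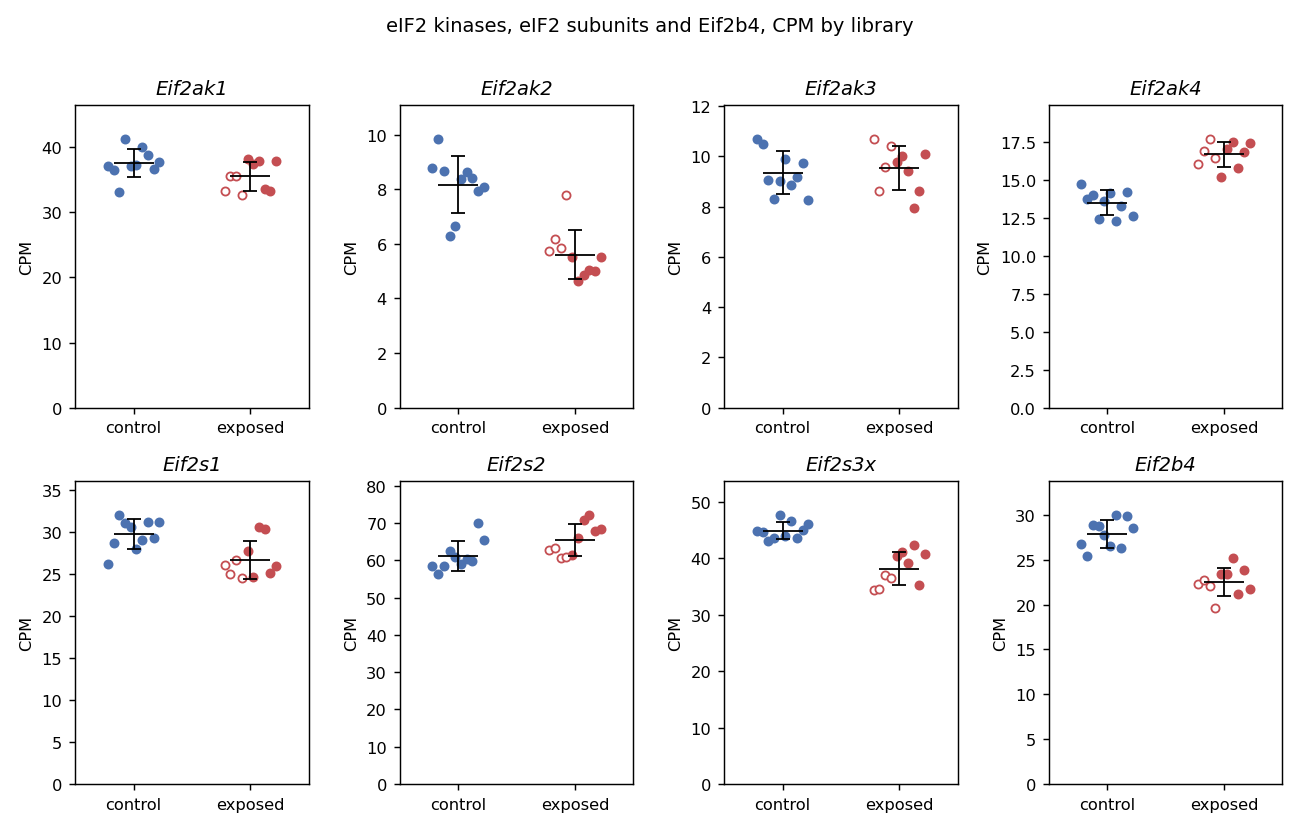
CPM of the 4 eIF2 kinase genes, 3 eIF2 subunit genes and Eif2b4 in each control (blue) and exposed (red) library, with the mean and SD as bars; open red points are exposed replicates 1 to 4. Eif2ak4 is higher in every exposed library (lowest 15.2 CPM) than in any control (highest 14.7 CPM), and Eif2s3x and Eif2b4 are lower without overlap.

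Of 14 eIF3 genes, 13 were tested, 6 rose and 2 fell, so 61.5% were called, near the 57.6% of all genes. The raised members were Eif3b, Eif3e, Eif3f, Eif3g, Eif3h and Eif3j1, and each kept its call and direction without exposed replicates 1 to 4. Eif3b, a core subunit gene, held 74.5 to 89.4 CPM (median 82.1) in controls and 97.3 to 116.2 CPM (median 103.4) in exposed libraries. The groups did not overlap, and the rise was 1.27-fold (0.35 ± 0.036 SE on the log2 scale; edgeR adjusted p = 5.06e-08). Eif3e, a subunit gene first known as the mouse mammary tumour virus site Int6, rose 1.22-fold, from 86.3 to 100.4 CPM (median 91.6) to 102.9 to 134.1 CPM (median 111.6), again without overlap (edgeR adjusted p = 5.70e-06). Eif3j1, which encodes a loosely bound subunit that acts at the decoding centre, rose 1.33-fold, from 60.3 to 74.4 CPM (median 64.8) to 73.0 to 102.2 CPM (median 84.9; edgeR adjusted p = 5.25e-07). It was the largest rise among eIF3 genes, with 9 of 10 exposed libraries above the highest control, and was 1.42-fold without exposed replicates 1 to 4. Eif3j1 overlaps Spg11 on the opposite strand, at 23.2 and 25.6 CPM, and its near copy Eif3j2 was too low to be tested, at 0.107 to 0.445 CPM among controls and 0.266 to 0.462 CPM in exposed libraries.

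Eif3f, whose protein is known as a target of the atrophy ubiquitin ligase atrogin-1, held 81.0 to 96.5 CPM (median 87.0) in controls and 89.1 to 101.6 CPM (median 94.4) in exposed libraries. The control mean was exceeded in all 10 exposed libraries, and the rise was 1.10-fold (edgeR adjusted p = 0.00195). Eif3g and Eif3h rose 1.12-fold and 1.08-fold. Eif3a, the gene of the largest subunit and the scaffold of the complex, was lower, from 138.8 to 171.9 CPM (median 149.0) to 125.0 to 155.7 CPM (median 140.4), a 1.09-fold decrease (edgeR adjusted p = 0.0271). That call depended on which libraries were kept, although 9 of 10 exposed libraries lay below the control mean. It was lost without control replicates 5 or 10, without exposed replicates 3 or 4, and without exposed replicates 1 to 4 together (log2 fold change -0.049 against -0.122, edgeR adjusted p = 0.404), which held 125.0 to 133.6 CPM against 139.1 to 155.7 CPM in the others. Eif3i fell 1.08-fold (edgeR adjusted p = 0.0173), a call that was also lost without exposed replicates 1 to 4, with no filter on low counts, and, as for Eif3a, with upper-quartile or library-size scaling. Eif3c, a further core subunit gene, held 134.2 to 163.3 CPM (median 141.2) and 132.1 to 158.0 CPM (median 140.5) and did not pass (-0.03 ± 0.038 SE on the log2 scale; edgeR adjusted p = 0.555). Eif3d, Eif3k, Eif3l and Eif3m did not pass, with log2 fold changes of -0.09 ± 0.049, -0.05 ± 0.035, -0.00 ± 0.040 and -0.02 ± 0.044 (SE).

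Set side by side, the eIF2, eIF3 and eIF4 genes had medians near 0 and differed in how far single members lay from it. The median log2 fold change was 0.002 for 15 eIF2 genes, -0.001 for 13 eIF3 genes and 0.007 for 15 eIF4 genes. The median absolute change was 0.099, 0.114 and 0.229 in that order, beside 0.274 over all tested genes. Called members numbered 8 of 15, 8 of 13 and 10 of 15, shares that lie around the 57.6% of all genes. The range of log2 fold changes was -0.54 to 0.31 for eIF2, -0.12 to 0.41 for eIF3 and -0.35 to 0.96 for eIF4. Differences between the 3 sets were not tested. In exposed replicates 1 to 4 the median of the eIF4 genes against the control mean ran from -0.153 to 0.060 log2 units and in exposed replicates 5 to 10 from -0.017 to 0.117, beside -0.080 to 0.085 in single controls. That of the eIF2 genes ran from -0.098 to -0.013 and from -0.082 to 0.189, beside -0.042 to 0.039 in single controls. That of the eIF3 genes ran from -0.043 to 0.054 and from -0.022 to 0.143, beside -0.089 to 0.078.

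**Figure D4:**
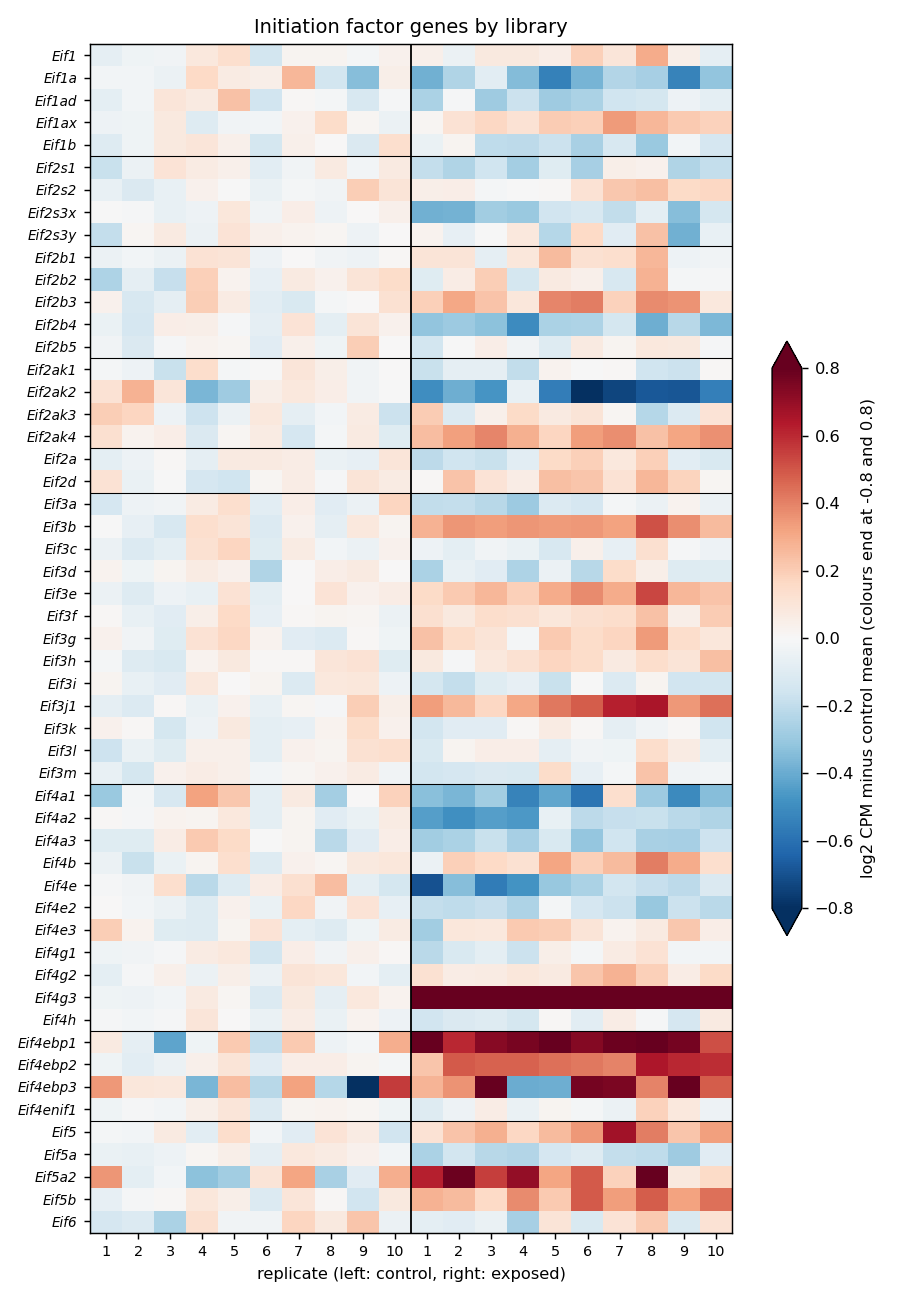
Log2 CPM minus the control mean for each of the 53 tested members (rows, grouped by factor) in the 20 libraries (columns, control left of the line); colours end at -0.8 and 0.8. The rows of Eif4g3, Eif4ebp1 and Eif4ebp2 are raised in all 10 exposed columns, and Eif4a2 and Eif4e are lowest in exposed columns 1 to 4.

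All 4 genes named for eIF5 were called, 3 raised and 1 lowered, where 57.6% of all genes were called. Eif5, which encodes the GTPase activator of eIF2, rose 1.24-fold, from 102.1 to 125.1 CPM (median 111.9) to 123.1 to 181.0 CPM (median 136.5; edgeR adjusted p = 5.43e-05), with 9 of 10 exposed libraries above the highest control. The rise of Eif5 was 1.31-fold without exposed replicates 1 to 4. Eif5b, the subunit-joining GTPase gene, rose 1.26-fold without overlap, from 68.9 to 81.9 CPM (median 76.9) to 85.5 to 107.4 CPM (median 96.1; edgeR adjusted p = 7.37e-07). It overlaps Rev1 on the opposite strand, which stood at 26.3 and 33.1 CPM. The 2 genes of eIF5A, the hypusinated factor that eases elongation and termination, moved apart. Eif5a fell 1.14-fold without overlap, from 183.4 to 205.1 CPM (median 192.6) to 158.4 to 181.6 CPM (median 168.4; edgeR adjusted p = 5.33e-05), while the scarce Eif5a2 rose 1.41-fold, from 1.78 to 2.89 CPM (median 2.18) to 2.39 to 4.33 CPM (median 3.27; edgeR adjusted p = 0.00141). Without exposed replicates 1 to 4 the rise of Eif5a2 was 1.30-fold (edgeR adjusted p = 0.0334). Eif6, which keeps ribosomal subunits apart, held 13.5 to 18.7 CPM (median 15.8) and 13.4 to 18.6 CPM (median 15.4) and did not pass (edgeR adjusted p = 0.833).

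Of 5 genes named for eIF1, 1 rose and 3 fell, where 28.7% of all genes were raised and 28.9% lowered. Eif1, the start codon fidelity factor gene, stood at 332.3 ± 18.1 and 350.9 ± 26.6 CPM (SD, n = 10 each) and did not pass (edgeR adjusted p = 0.139), and its relative Eif1b fell 1.11-fold (edgeR adjusted p = 0.0179). The X-linked eIF1A gene Eif1ax rose 1.13-fold, from 62.7 ± 3.14 to 71.1 ± 4.35 CPM (SD over 10 libraries each; by edgeR, adjusted p = 0.000311). Its autosomal copy Eif1a fell 1.26-fold, from 9.63 to 14.7 CPM (median 12.3) to 8.36 to 11.5 CPM (median 9.69; edgeR adjusted p = 0.000151). The copies resemble each other, and their values are uncertain as far as shared reads were counted for either. Eif1ad fell 1.13-fold (edgeR adjusted p = 0.00530) and overlaps Banf1 on the opposite strand, at 32.6 and 24.3 CPM. Under scaling by upper quartile or by library size only, neither Eif1b nor Eif1ad passed, and Eif1b did not pass with no filter on low counts. Eif1 passed as raised under both of these scalings (edgeR adjusted p = 0.00721 and 0.00345) and with a filter of 1 CPM (edgeR adjusted p = 0.0479).

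Levels between genes can be set side by side only per length, here CPM per kilobase of all exons of a gene in the annotation. In controls Eif1 stood highest, at 158.4 ± 8.61 CPM per kilobase (SD, n = 10). Eif5a (81.3 ± 3.19), Eif4g2 (78.7 ± 3.71), Eif4g1 (73.5 ± 3.38) and Eif4b (63.8 ± 4.15) followed, and each overlapped its neighbour in this order. Eif4e, at 12.7 ± 1.27 CPM per kilobase, lay beside Eif4g3 at 11.7 ± 0.530 and Eif4ebp1 at 11.6 ± 1.65, while Eif4ebp2 stood at 40.8 ± 1.84. Among eIF3 genes the level ran from 49.6 ± 2.92 for Eif3h to 7.48 ± 0.442 for Eif3d, leaving out the near-silent Eif3j2, although their proteins sit in one complex. The kinase genes were low, with Eif2ak4, Eif2ak2 and Eif2ak3 at 1.81 ± 0.110, 1.60 ± 0.203 and 1.55 ± 0.139 CPM per kilobase and overlapping ranges, and Eif2ak1 at 6.63 ± 0.391. Exons that muscle does not use lower these values.

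**Figure D5:**
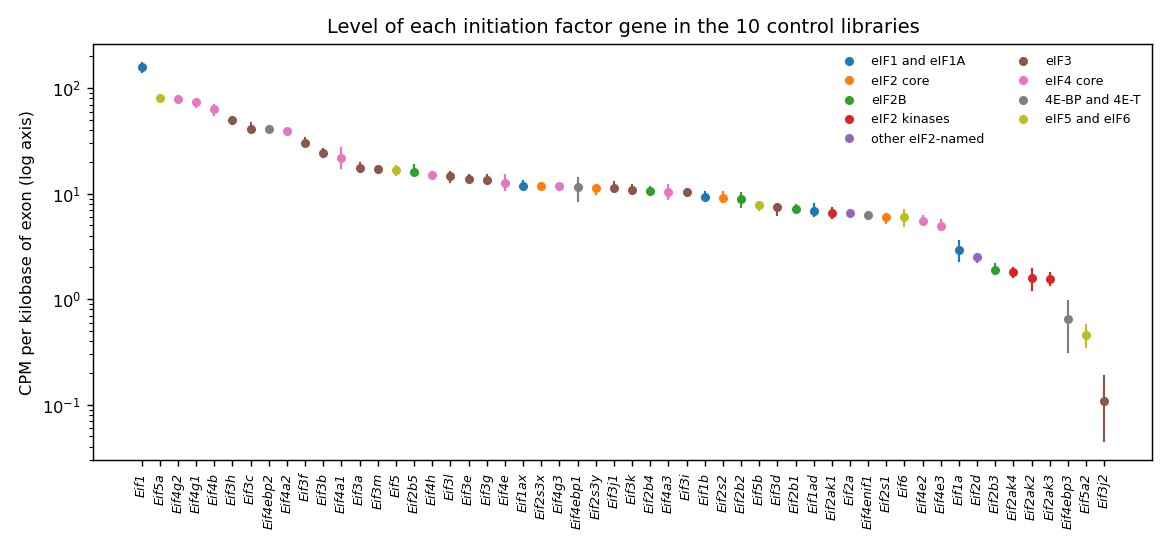
Mean level of each member in the 10 control libraries, in CPM per kilobase of exon on a log axis, with vertical lines from the lowest to the highest control and colours for the factor; Eif4e1b, with no counts, is left out. Eif1 is highest at 158.4 and Eif3j2 lowest at 0.108, and most members lie near 10 with overlapping lines.

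Genes that act with the initiation factors were read from 4 lists of partners, in the same fit, where 57.6% of all genes were called. Of 19 partners of initiation, 3 rose and 9 fell. Mknk1 and Mknk2, the kinases that phosphorylate eIF4E, moved in opposite directions, from 14.3 ± 1.34 to 19.9 ± 1.77 CPM and from 436.2 ± 59.7 to 322.3 ± 37.5 CPM (SD over 10 libraries each; by edgeR, adjusted p = 1.67e-07 and 2.32e-05). The poly(A)-binding protein gene Pabpc4 fell 1.40-fold and Paip1, which encodes a protein that joins poly(A)-binding protein to eIF4A, 1.23-fold, both without overlap (edgeR adjusted p = 1.70e-07 and 7.50e-06). Without exposed replicates 1 to 4 these decreases were 1.29-fold and 1.17-fold. The counts were 6 raised and 5 lowered with library size alone, and 2 and 6 without exposed replicates 1 to 4.

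Of 10 genes around eIF2 phosphorylation, 2 rose and 4 fell. Gcn1l1, which encodes the GCN2 activator GCN1, had a control mean of 80.7 ± 5.73 CPM and an exposed mean of 111.7 ± 9.01 CPM (SD, n = 10 each), a 1.38-fold rise, without overlap (edgeR adjusted p = 1.00e-08). The adaptor gene Nck1 fell 1.18-fold, Dnajc3, an inhibitor of eIF2 kinases, 1.11-fold, and the phosphatase catalytic subunit gene Ppp1cb 1.08-fold, a call that was lost without exposed replicates 1 to 4 (edgeR adjusted p = 0.183). Atf4, whose mRNA is translated more when eIF2 is phosphorylated, stood at a log2 fold change of 0.08 ± 0.095 SE and did not pass (edgeR adjusted p = 0.458); it is named here after its value was seen. With library size alone 4 of the 10 rose and 1 fell, and without exposed replicates 1 to 4 the counts were 2 and 2.

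Of 10 genes that link mTORC1 to eIF4E and the ribosome, 4 rose and 2 fell. Rps6kb1, the S6 kinase gene, rose 1.32-fold and Deptor, an inhibitor within mTORC1, 1.48-fold, each without overlap (edgeR adjusted p = 1.97e-09 and 4.94e-09). Rptor, which encodes the subunit that presents 4E-BP to the kinase, fell 1.30-fold, from 70.5 ± 5.77 to 54.1 ± 5.61 CPM (SD over 10 libraries each; by edgeR, adjusted p = 3.54e-06), and Rps6 rose 1.12-fold. Ddit4 had the largest change of the 10, a 2.42-fold rise with overlapping groups (edgeR adjusted p = 0.00232). Its rise was 1.98-fold without exposed replicates 1 to 4, and it is named here after its value was seen. The lowered count was 1 with library size alone and also without exposed replicates 1 to 4. Of 10 genes of elongation and termination, 4 rose and 3 fell. Eef2k, the kinase that inhibits elongation factor eEF2, had a control mean of 51.2 ± 4.87 CPM and an exposed mean of 121.6 ± 12.7 CPM (SD, n = 10 each), a 2.38-fold rise, without overlap (edgeR adjusted p = 4.03e-14). Eef2 itself rose 1.22-fold and Eef1a1 1.24-fold, while Eef1g fell 1.23-fold. Without exposed replicates 1 to 4 these changes were 1.26-fold, 1.17-fold and 1.16-fold in that order. Changes in mRNA, as measured here, do not give the amount or phosphorylation of any of these proteins.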

How the data were processed

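The authors deposited unnormalized read counts, 1 row per Ensembl gene and 1 column for each of 20 libraries. The submitters' processing notes name the build GRCm39 and, as tools, edgeR, featureCounts 1.5.1, Subread and MultiQC 1.15. Their roles, strand option and handling of multi-mapping reads are not stated in the sources used here. Columns were tied to samples by the codes in the sample descriptions. Names and gene classes came from GENCODE M21 (build GRCm38) by Ensembl identifier, for 52000 of 56941 rows; all 55 members found in that annotation were in the table.

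The whole count table was fitted with edgeR 4.0.16 (R 4.3.3): filterByExpr (minimum count 10, minimum total 15), TMM, robust quasi-likelihood fits, exposed against control, with Benjamini-Hochberg adjustment over 16778 genes and a threshold of 0.05. Each SE belongs to the difference between the groups' mean log2 CPM (prior count 2). The test was first run on simulated counts with known changes. That simulation changed a small part of the genes and gave all genes the same spread. It does not cover data in which 57.6% of genes were called. No columns were identical. Alternatives were other scalings (upper-quartile, DESeq2's size factors, or library size alone), other tests (DESeq2 1.42.0 and limma-voom 3.58.1 with quality weights), other filters, a replicate block, stricter thresholds and libraries left out. Same-numbered libraries did not deviate together (correlations of -0.132 to 0.0982).

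The members, the lists and the rule for named genes (24 members set by name, the 10 other called members with the largest change and a mean of at least 1 CPM, and 4 genes by p in each partner list) were chosen with earlier results of these data known, so no list is independent evidence.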

Additional observations from a re-analysis of the deposited data

Results flagged for a closer look

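A library was singled out where its gap to the nearest other library of its group, divided by the range of the group, passed Dixon's critical value for 10 samples. This met 9 of 68 gene and group combinations, and chance gives about 1 in 20. In exposed libraries, Eif4ebp1 stood at 55.4 CPM in replicate 8 (next 45.5), Eif3b at 116.2 CPM in replicate 8 (next 105.4), Eif4a1 at 103.6 CPM in replicate 7 (next 78.0), Eif5 at 181.0 CPM in replicate 7 (next 150.9) and Eif2ak2 at 7.78 CPM in replicate 4 (next 6.16). In controls, Eif2b5 stood at 47.9 CPM in replicate 9 (next 43.0), Eif3j1 at 74.4 CPM in replicate 9 (next 67.2), Eif3f at 96.5 CPM in replicate 5 (next 89.1) and Eif4g1 low at 483.1 CPM in replicate 6 (next 523.6). For Eif4ebp1, Eif3b, Eif4a1, Eif5, Eif2ak2, Eif3j1 and Eif3f the call was kept without the library named.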

How the results depend on the processing

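No called member changed sign under any setting tried. Tested against a fold of 1.2, 6 members were raised and 1 lowered, with 0 and 1 for eIF2, 2 and 0 for eIF3 and 3 and 0 for eIF4. The count of lowered eIF3 genes, 2 over all libraries, was 0 with upper-quartile factors, with library size alone, at an adjusted p under 0.01 and without exposed replicates 1 to 4, and 1 with no filter. Leaving out 1 library gave 1 to 3: it was 1 without control replicates 5 or 10 or exposed replicates 3 or 4, and 3 without control replicate 6 or exposed replicate 7. Library size alone raised 8 eIF4 genes, against 5. Some members passed only in other settings. Upper-quartile factors and library size alone each added Eif1, Eif2b1, Eif4e3 and Eif4ebp3, all raised, and library size alone also added Eif4enif1. A filter of 1 CPM added Eif1 and Eif2b1. With 1 library left out, Eif2b1, Eif2ak1, Eif3d, Eif4e3 or Eif4ebp3 passed in some fits. The members that changed sign in some setting had not passed the test with TMM over all libraries. Eif2a, Eif3k, Eif3l, Eif3m and Eif4h did so with library size alone (0.06, 0.03, 0.08, 0.05 and 0.02 on the log2 scale), among other settings. Eif2a, Eif3l and Eif3m did so also without exposed replicates 1 to 4 (0.08, 0.01 and 0.05). Eif4enif1 did so without control replicate 6 or exposed replicate 8 (-0.01 each) or exposed replicate 9 (-0.00). Eif2b2 did so without control replicate 1 or exposed replicate 8 (-0.00 each). The others are members whose values by library are given. Log2 fold changes with upper-quartile factors and with library size alone were 0.021 and 0.038 for Eif4g1, 0.036 and 0.060 for Eif2s3y, 0.032 and 0.053 for Eif3c, and 0.043 and 0.060 for Eif6. Without exposed replicates 1 to 4, Eif4g1 stood at 0.036 and Eif6 at 0.059. Eif6 was 0.002 with a filter of 1 CPM, and the log2 fold change of Eif2b5 was -0.00015 with no filter. With 1 library left out, values ran from -0.056 to 0.011 for Eif2s3y, from -0.012 to 0.023 for Eif2b5 and from -0.046 to 0.007 for Eif6. The cause was not tested. A replicate block gave 19 raised and 15 lowered members and kept all 34 calls. No pairing by replicate number was seen in the deviations from the group means. There, 0 of 10 same-numbered pairs correlated over 0.1, and 0 controls correlated best with their own number. This cannot exclude pairing, since exposed replicates 1 to 4 stood apart from the other exposed libraries. Depth limits Eif4ebp3 and Eif3j2, both under 1 CPM.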
